A study of Mus musculus with 6 samples.

Results

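The expression of 8 genes of hepatic glucose output and glycogen metabolism was examined in liver of male mouse pups at postnatal day 6 (P6). The hSRY-ON animals express human SRY ectopically, and in the hSRY-OFF animals the SRY cassette of the transgene is silent. The genes were chosen by their symbols, and were Pklr, G6pc, Pck1, Pcx, Slc2a2, Slc37a4, Gys2 and Pygl, out of 18138 symbols on the array. Every probe that the deposited table assigned to these symbols was taken, which gave 13 of 25697 probes. Both groups carried the Signalox-hSRY transgene in the H11 locus of chromosome 11 on the FVB/N background (FVB in the labels), and each group had 3 arrays. In hSRY-OFF pups the transgene had not been recombined, and in this state its CAG promoter drives the red fluorescent protein DsRed2. In hSRY-ON pups the transgene had been recombined in the zygote by Cre protein that Ddx4-Cre mothers had deposited in the oocyte. The hSRY-ON pups selected for the arrays had not inherited Ddx4-Cre themselves. The activated transgene has lost DsRed2 and drives FLAG-tagged human SRY and EGFP from the CAG promoter throughout the body. Thus the comparison addresses widespread SRY activation, with gain of EGFP and loss of DsRed2, in 1 transgenic line with a single integration. It does not address SRY made in the liver alone. The study described the hSRY-ON pups as growth retarded at this age. It also reported minimal suckling, a lack of milk in the stomach, and fatty liver in hSRY-ON pups. Body size, feeding, liver fat and transgene activation therefore cannot be told apart here. As maternal Cre acts whether or not a pup inherits Ddx4-Cre, the hSRY-OFF pups are likely to have had other mothers. Mother and litter then cannot be told apart from group either. As the array is of mouse design, the group labels were not checked against expression of human SRY.

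Liver supplies glucose to the blood from 2 sources, stored glycogen and new synthesis from lactate, glycerol and amino acids. Synthesis from lactate, by way of pyruvate, begins with pyruvate carboxylase (Pcx) and passes through cytosolic phosphoenolpyruvate carboxykinase (Pck1). It is opposed at the pyruvate step by liver pyruvate kinase (Pklr). Both sources end in glucose 6-phosphate, which the transporter Slc37a4 carries into the endoplasmic reticulum, where the catalytic subunit G6pc removes the phosphate. Free glucose crosses the hepatocyte membrane through the carrier Slc2a2 (GLUT2), in either direction. Glycogen is built by liver glycogen synthase (Gys2) and broken down by liver glycogen phosphorylase (Pygl). A suckling pup takes in milk rich in fat and poor in carbohydrate, and its liver is a main source of blood glucose.

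The 6 arrays were of similar depth in signal, with 10318 to 10762 probes detected (detection p under 0.01) and median intensities of 147 to 165. Pearson correlations of log2 values over all tested probes ranged from 0.987 to 0.992 among the hSRY-OFF arrays, from 0.965 to 0.982 among the hSRY-ON arrays, and from 0.912 to 0.939 between the groups. Within the hSRY-ON group, the array of replicate 3 was the least like the others, with correlations of 0.965 and 0.976, beside 0.982 between replicates 1 and 2. The median SD of a probe was 0.21 on the log2 scale over the 3 hSRY-ON arrays, and 0.20, 0.18 and 0.14 when replicate 1, 2 or 3 was left out. Over the 3 hSRY-OFF arrays it was 0.14, and 0.13, 0.11 and 0.10 when they were left out in the same way, so that the median SD was smaller with any 1 array fewer. The differences of the 6 tested genes are given also without hSRY-ON replicate 3, the array with the lowest correlations within its group. All levels are log2 values of background-corrected and quantile-normalised intensity, and all differences are hSRY-ON minus hSRY-OFF on that scale, from limma with Benjamini-Hochberg adjustment over 10734 tested probes. A probe was tested if it was detected on at least 3 of the 6 arrays.

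Of the 13 probes, 9 were tested, and they represented 6 of the 8 genes. The single probes of Pck1 and Slc37a4 were too dim to be tested, as were 1 of 3 probes each of Pklr and Slc2a2. For Pck1 and Slc37a4, low expression and a poorly reading probe cannot be told apart. At an adjusted p under 0.05, 5 of the 9 probes were lower in hSRY-ON liver, and none was higher. They belonged to Pklr, Pcx and Pygl. Across all tested probes, 33.1% were called, with 17.3% lower and 15.8% higher, so that a large share of the liver transcriptome differed between the groups. All 3 hSRY-ON values lay below all 3 hSRY-OFF values for 6 of the 9 probes, and for 24.6% of all tested probes. The median difference of the 9 probes was -0.50, beside 0.02 over all tested probes, and their median absolute difference was 0.50, beside 0.34. Without hSRY-ON replicate 3 the count was again 5 lower and 0 higher. Without hSRY-OFF replicate 1, or without hSRY-OFF replicate 2, 3 probes were lower. Since each sample is whole liver, fewer cells of a type and less RNA per cell cannot be told apart.

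**Figure D1:**
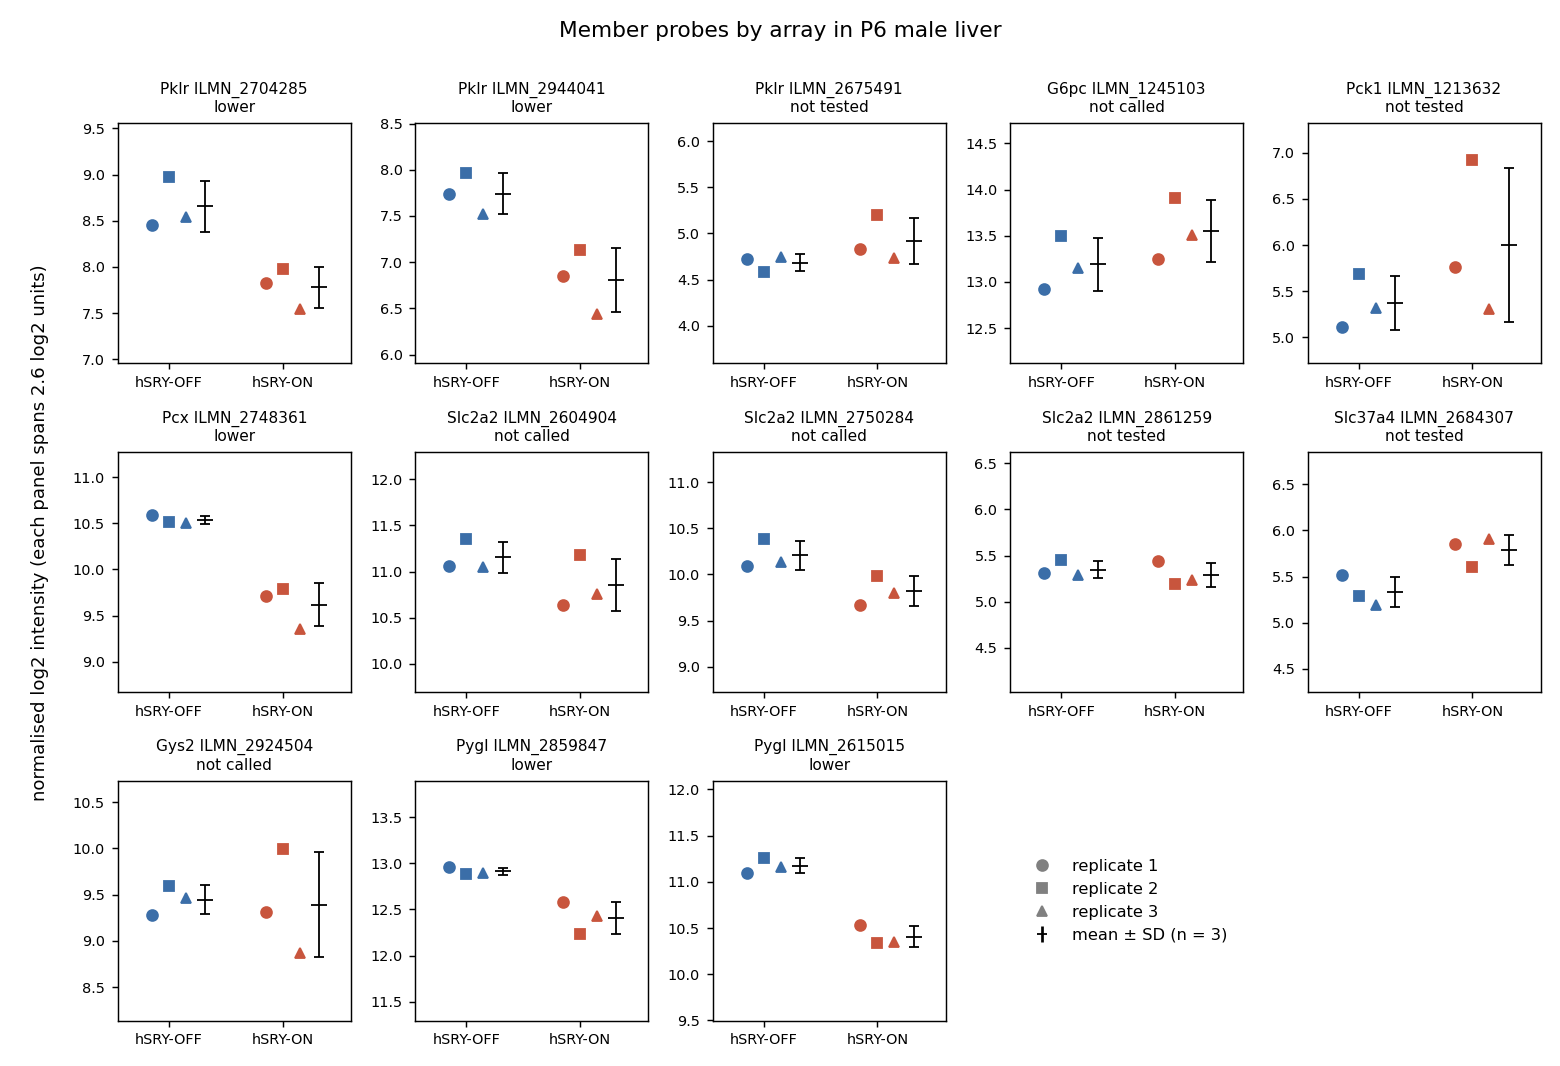
Normalised log2 intensity of each of the 13 probes of the 8 genes on the 3 hSRY-OFF arrays (blue) and the 3 hSRY-ON arrays (red), with 1 panel per probe, symbols for the replicate number, and the mean ± SD (n = 3) beside each group. The hSRY-ON values of both tested Pklr probes, of Pcx and of both Pygl probes all lie below the hSRY-OFF values, whereas those of G6pc and Gys2 overlap.

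The first gene to be considered was Pklr, which encodes the liver and the red cell forms of pyruvate kinase from separate starts. Its expression was reduced in hSRY-ON liver by both tested probes. With the probe ILMN_2704285 the levels were 8.46, 8.97 and 8.54 in hSRY-OFF and 7.83, 7.97 and 7.54 in hSRY-ON liver. All hSRY-ON arrays were below all hSRY-OFF arrays. The means were 8.66 ± 0.28 and 7.78 ± 0.22 (SD, n = 3), a difference of -0.88 ± 0.18 (SE, 95% confidence interval -1.31 to -0.45, adjusted p = 0.0109, limma), or 54.5% of the hSRY-OFF level. Without hSRY-ON replicate 3 it was -0.75 (adjusted p = 0.0184). With ILMN_2944041 the levels were 7.73, 7.97 and 7.52 against 6.85, 7.13 and 6.44, again with no overlap. The difference was -0.93 ± 0.20 (SE, -1.41 to -0.45, adjusted p = 0.0131, limma), or 52.5% of the hSRY-OFF level. The call of this second probe was lost without hSRY-OFF replicate 1 (adjusted p = 0.0519) or replicate 2 (adjusted p = 0.0545), and held without hSRY-ON replicate 3 (adjusted p = 0.0161). The third probe, ILMN_2675491, was detected on 0 of 6 arrays and was not tested.

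The proximal promoter of the liver form of Pklr is shown because the carbohydrate response element was classically studied in this gene, and because Mlxipl (ChREBP), the factor that binds such elements, was itself lower in these livers. RefSeq gives 2 starts for Pklr, and the 250 bases before the downstream start lie at chr3:89136373-89136622 on the plus strand of GRCm38.p6. The capitals mark the letters CACGNG and CNCGTG, 5 bases apart, searched on both strands.

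Pklr, liver form: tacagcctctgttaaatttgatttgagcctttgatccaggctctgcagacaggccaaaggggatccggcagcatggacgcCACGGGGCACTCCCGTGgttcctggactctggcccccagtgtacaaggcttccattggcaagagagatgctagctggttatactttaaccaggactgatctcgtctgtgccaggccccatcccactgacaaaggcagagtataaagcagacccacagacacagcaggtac

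This arrangement lay 170 to 154 bases before the start, and was held by 13 of 32851 promoter windows of the same length (0.0396%). It was found in no other window of the 8 genes. Among the other genes with such a window, A430005L14Rik was the one with tested probes, and none of its 4 probes was called (differences of -0.08 to 0.11, adjusted p from 0.643 to 0.941). Mlxipl levels were 10.54, 10.52 and 10.46 in hSRY-OFF and 8.76, 8.77 and 8.90 in hSRY-ON liver. The difference was -1.70 ± 0.11 (SE, adjusted p = 0.000151, limma), to 30.8% of the hSRY-OFF level. The letters are a description of the reference sequence, and no binding was measured.

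Red cell precursors also express Pklr, and the neonatal liver still makes blood. Of 13 tested probes for erythroid genes, 5 were higher and 0 lower in hSRY-ON liver, beside 15.8% higher and 17.3% lower over all tested probes. The median difference of the 13 was 0.71. The summed linear level of the erythroid genes ranged from 74883 to 99018 in hSRY-OFF and from 100646 to 117726 in hSRY-ON liver. No erythroid probe was called lower, whereas both tested Pklr probes were. The part of erythroid cells in the Pklr levels was not tested, nor which form of Pklr each probe reads.

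Pyruvate carboxylase, the mitochondrial enzyme that makes oxaloacetate from pyruvate, was reduced to a similar degree. The levels of Pcx were 10.59, 10.51 and 10.50 in hSRY-OFF and 9.71, 9.79 and 9.36 in hSRY-ON liver. The hSRY-OFF arrays lay close together (SD 0.05) and were all above the hSRY-ON arrays. The difference was -0.91 ± 0.14 (SE, 95% confidence interval -1.25 to -0.57, adjusted p = 0.00369, limma), or 53.1% of the hSRY-OFF level. The call held in all 17 alternative settings, with differences between -0.999 and -0.784. Without hSRY-ON replicate 3 the difference was -0.78 (adjusted p = 0.00319).

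Cytosolic phosphoenolpyruvate carboxykinase, the enzyme that commits oxaloacetate to glucose synthesis, could be assessed only within limits. The probe for Pck1 was detected on 0 of 3 hSRY-OFF arrays and on 2 of 3 hSRY-ON arrays, replicates 1 and 2. Its levels were 5.11, 5.69 and 5.32 in hSRY-OFF and 5.76, 6.92 and 5.31 in hSRY-ON liver. Replicate 2 of hSRY-ON was the highest array, and replicate 3 lay within the hSRY-OFF range. The hSRY-ON mean was 1.20 times the detection floor of the hSRY-OFF arrays, with the undetected replicate 3 counted at its own value. As the groups overlap, this is not a lower bound. In the fit without the filter on dim probes, the difference was 0.62 ± 0.40 (SE, 95% confidence interval -0.32 to 1.57, adjusted p = 0.434, limma).

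By contrast, the terminal enzyme of glucose release was strongly detected on all arrays and was not called. G6pc levels were 12.93, 13.49 and 13.16 in hSRY-OFF and 13.24, 13.91 and 13.51 in hSRY-ON liver. The 2 ranges overlapped, with replicate 2 the highest array in each group. The means were 13.19 ± 0.29 and 13.56 ± 0.34 (SD, n = 3), and the difference was 0.36 ± 0.22 (SE, adjusted p = 0.229, limma). The 95% confidence interval, from -0.14 to 0.87, corresponds to 90.7% to 183% of the hSRY-OFF level. A fall of the size measured for Pcx lay outside it. Without hSRY-ON replicate 3 the difference was 0.38 (adjusted p = 0.268). G6pc was the only one of the 9 tested probes with a positive difference. The ubiquitous isoform G6pc3 had a difference of -0.11 (adjusted p = 0.626) by its 1 tested probe.

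The promoters of G6pc and Pck1 are shown together, as they are textbook targets of insulin through Foxo1 and of glucagon through cyclic AMP. The 250 bases before each start lie at chr11:101367466-101367715 and chr2:173152823-173153072, both on the plus strand of GRCm38.p6 (RefSeq). Capitals mark TGTTTTG, the core of the insulin response sequence, in G6pc, and CGTCA, which is the half-site TGACG of the cyclic AMP response element read from the opposite strand, in Pck1. Both strands were searched.

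G6pc: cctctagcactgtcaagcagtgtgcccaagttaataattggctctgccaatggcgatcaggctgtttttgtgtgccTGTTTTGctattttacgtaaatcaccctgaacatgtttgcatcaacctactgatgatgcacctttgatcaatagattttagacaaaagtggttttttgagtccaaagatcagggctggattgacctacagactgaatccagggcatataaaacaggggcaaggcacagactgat

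Pck1: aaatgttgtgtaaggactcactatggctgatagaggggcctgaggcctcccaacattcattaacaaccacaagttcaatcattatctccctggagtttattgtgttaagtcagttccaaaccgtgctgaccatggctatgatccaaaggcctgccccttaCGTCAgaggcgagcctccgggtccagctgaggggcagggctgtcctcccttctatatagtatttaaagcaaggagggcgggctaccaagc

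The core in G6pc lay 174 to 168 bases before the start, and 5.56% of the 32851 windows held such letters. The half-site in Pck1 lay 90 to 86 bases before the start, and 17.8% of windows held one, so that the letters themselves are common. Of the factors linked to them, Foxo1 had levels of 8.54, 8.79 and 8.53 in hSRY-OFF and 9.65, 9.26 and 8.78 in hSRY-ON liver. Its difference was 0.61 and missed the threshold (adjusted p = 0.0701), which it passed without hSRY-ON replicate 3 (difference 0.83, adjusted p = 0.00934). The glucagon receptor Gcgr was lower on every hSRY-ON array than on any hSRY-OFF array, with a difference of -1.20 ± 0.19 (SE, adjusted p = 0.004, limma). The core letters AACAAT, to which SRY binds, were present in 0 of the 11 windows of the 8 genes, and in 9.42% of all windows.

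The single probe of the glucose 6-phosphate transporter Slc37a4, which feeds G6pc, was near the detection limit. It was detected on 0 of 3 hSRY-OFF arrays and on 2 of 3 hSRY-ON arrays, replicates 1 and 3. The levels were 5.51, 5.29 and 5.19 in hSRY-OFF and 5.85, 5.60 and 5.91 in hSRY-ON liver, so that all hSRY-ON arrays were above. The hSRY-ON mean was 1.03 times the detection floor of hSRY-OFF, with the undetected replicate 2 counted at its own value. Without the filter on dim probes the difference was 0.46 ± 0.13 (SE, 95% confidence interval 0.15 to 0.76, adjusted p = 0.0644, limma).

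The glucose carrier Slc2a2 had differences below zero with both detected probes, and neither was called. With ILMN_2604904 the levels were 11.07, 11.35 and 11.05 in hSRY-OFF and 10.64, 11.17 and 10.76 in hSRY-ON liver. Here hSRY-ON replicate 2 overlapped the hSRY-OFF range, and the difference was -0.30 ± 0.17 (SE, 95% confidence interval -0.71 to 0.11, adjusted p = 0.225, limma). With ILMN_2750284 the levels were 10.10, 10.38 and 10.13 against 9.67, 9.99 and 9.80, with no overlap. The difference was -0.39 ± 0.14 (SE, -0.72 to -0.05, adjusted p = 0.0726, limma), and it passed the threshold with no background correction (adjusted p = 0.0438) and with array weights (adjusted p = 0.0344). Without hSRY-ON replicate 3 the differences of the 2 probes were -0.25 (adjusted p = 0.347) and -0.38 (adjusted p = 0.104). The third probe, ILMN_2861259, was detected on 0 of 6 arrays.

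With respect to glycogen, the enzyme of breakdown was lower, whereas the enzyme of synthesis varied too much among the hSRY-ON arrays to be placed. Pygl was read by 2 probes, and both were called. With ILMN_2615015 the levels were 11.10, 11.26 and 11.16 in hSRY-OFF and 10.54, 10.33 and 10.35 in hSRY-ON liver. The difference was -0.77 ± 0.12 (SE, 95% confidence interval -1.05 to -0.49, adjusted p = 0.00356, limma), or 58.7% of the hSRY-OFF level. With ILMN_2859847 the levels were 12.96, 12.89 and 12.89 against 12.58, 12.23 and 12.43. The difference was -0.50 ± 0.13 (SE, -0.80 to -0.20, adjusted p = 0.0228, limma), or 70.7% of the hSRY-OFF level. The groups did not overlap by either probe, and both calls held without hSRY-ON replicate 3 (-0.74, adjusted p = 0.00584, and -0.51, adjusted p = 0.0296). The call of ILMN_2615015 held in all 17 alternative settings, and that of ILMN_2859847 was lost without any 1 of 4 arrays, namely hSRY-OFF replicate 1, 2 or 3 and hSRY-ON replicate 2, with adjusted p from 0.0510 to 0.0911.

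The promoter of Pygl is given because it was the called glycogen enzyme and held the same cyclic AMP half-site letters as Pck1. The 250 bases before its start lie at chr12:70227684-70227933 on the minus strand of GRCm38.p6 (RefSeq), with CGTCA in capitals, 44 to 40 bases before the start.

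Pygl: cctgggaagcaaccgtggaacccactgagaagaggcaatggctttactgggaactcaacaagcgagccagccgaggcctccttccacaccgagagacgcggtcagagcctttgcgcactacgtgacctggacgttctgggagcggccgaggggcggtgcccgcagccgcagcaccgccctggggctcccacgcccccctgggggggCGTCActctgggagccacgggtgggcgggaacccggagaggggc

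The half-site letters were present in windows of 3 of the 7 genes that had a window, Pck1, Slc37a4 and Pygl. Of these, Pygl was called lower, and Pck1 and Slc37a4 were too dim to be tested. Gys2 had no window in the table used.

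Gys2 levels were 9.28, 9.59 and 9.47 in hSRY-OFF and 9.31, 9.996 and 8.87 in hSRY-ON liver. The hSRY-ON arrays fell on both sides of the hSRY-OFF arrays, with replicate 2 the highest of all 6 and replicate 3 the lowest. The means were 9.45 ± 0.16 and 9.39 ± 0.57 (SD, n = 3), and the difference was -0.05 ± 0.27 (SE, 95% confidence interval -0.69 to 0.58, adjusted p = 0.901, limma). Its sign turned without hSRY-ON replicate 3 (0.21), without hSRY-OFF replicate 2 (0.02) and with array weights (0.01). The differences measured for Pcx and Pklr lay outside this interval, but their own confidence intervals overlap it.

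**Figure D2:**
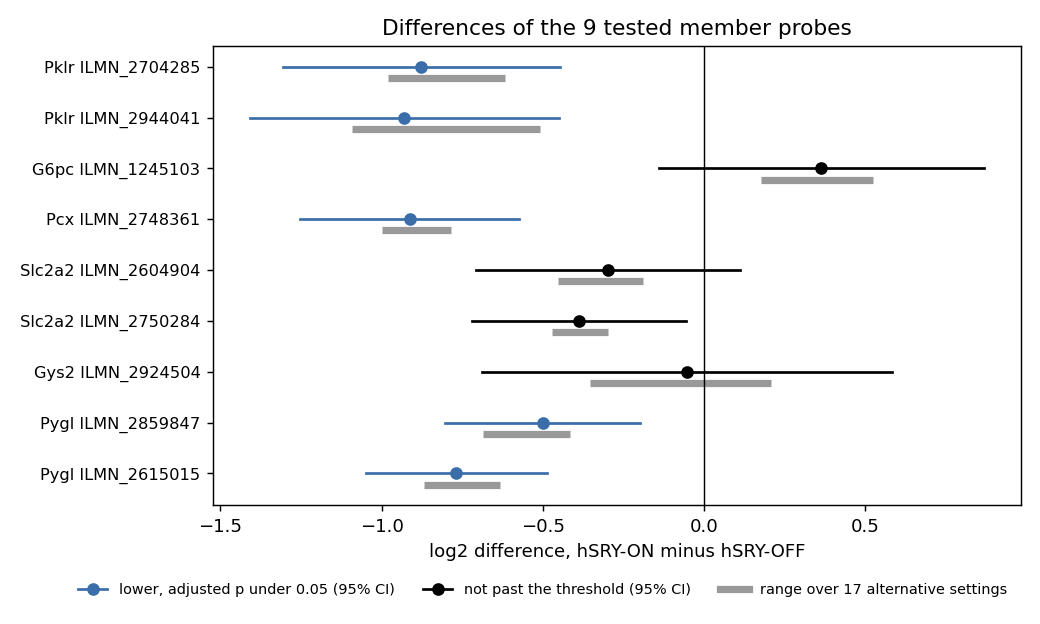
Differences of the 9 tested probes, hSRY-ON minus hSRY-OFF on the log2 scale, with 95% confidence intervals from limma and, in grey, the range over 17 alternative settings. The 5 probes called lower (blue), of Pklr, Pcx and Pygl, lie between -0.93 and -0.50, and the 4 others (black) have adjusted p from 0.0726 to 0.901.

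Next, 3 pairs of genes with linked roles were compared within each array, using the brightest tested probe of each gene. A ratio between 2 probes has no meaning as a level, but its difference between groups does not depend on a scale factor of the array. The log2 ratio of Slc2a2 to G6pc was -1.86, -2.14 and -2.11 in hSRY-OFF and -2.60, -2.74 and -2.75 in hSRY-ON liver. The groups did not overlap, and the ratio fell by 0.66 ± 0.10 (SE), with p = 0.1 by the exact two-sided permutation test, which is the smallest p that 3 against 3 arrays can give, and 0.3 after adjustment over the 3 pairs. The difference was between -0.72 and -0.58 in every setting run. The ratios of the 2 groups thus lay apart by more than the spread between replicates, with 1 probe per gene and neither gene called. No exact permutation p under 0.05 can be reached with this design, so an unequal change of the 2 genes was not established. The log2 ratio of Gys2 to Pygl was -3.68, -3.29 and -3.43 in hSRY-OFF and -3.27, -2.24 and -3.55 in hSRY-ON liver, a difference of 0.45 ± 0.42 (SE, exact permutation p = 0.4, adjusted p = 0.6) with overlapping groups. The log2 ratio of Pklr to Pcx was -2.13, -1.54 and -1.96 against -1.88, -1.82 and -1.82, a difference of 0.04 ± 0.18 (SE, exact permutation p = 0.9, adjusted p = 0.9). Its sign turned without hSRY-OFF replicate 1 (-0.10) or replicate 3 (-0.01).

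**Figure D3:**
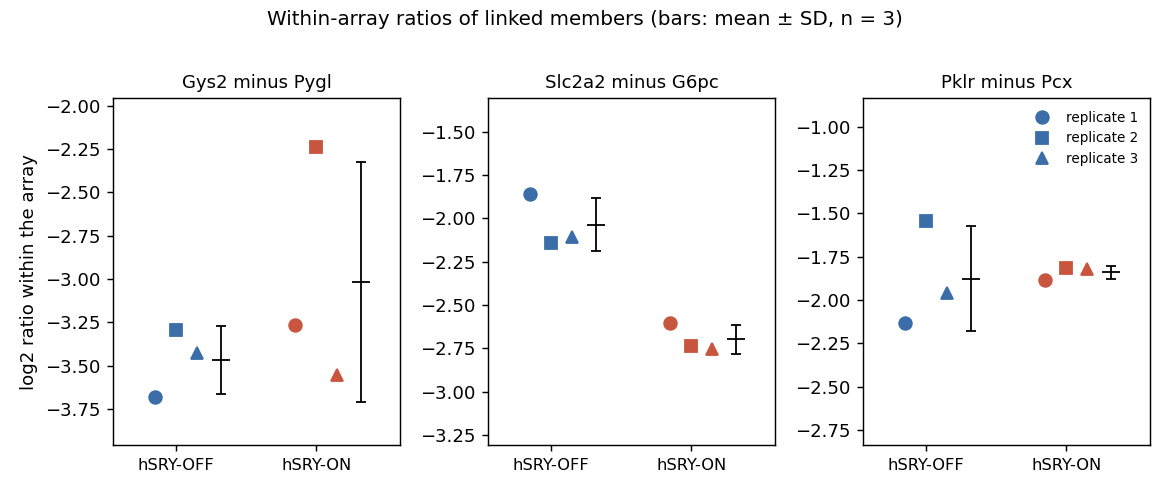
Log2 ratio of linked genes within each array for Gys2 to Pygl, Slc2a2 to G6pc and Pklr to Pcx, in hSRY-OFF (blue) and hSRY-ON (red) liver, with symbols for the replicate number and bars for the mean ± SD (n = 3). The groups are separate only for Slc2a2 to G6pc, at -2.04 and -2.70 on average.

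The levels of the 9 probes were also compared among replicates. In the hSRY-OFF group 7 of them were highest on the array of replicate 2, in the hSRY-ON group likewise 7, and 6 were highest there in both groups. The 9 probes represent 6 genes, and both probes of Pklr and of Slc2a2 are in each of these counts. The share of all tested probes that were highest on these arrays was not counted. Whether the counts are particular to these genes was therefore not tested. Correlations between genes used only the brightest tested probe of each gene. After removal of the group means, G6pc and Slc2a2 correlated with r = 0.94 over the 6 arrays, and G6pc and Pygl with r = -0.87. These are descriptions of 6 arrays that share their group means, without a test. On this measure Pygl, read by ILMN_2859847, correlated negatively with each of the other 5 tested genes, with r from -0.87 to -0.18. Its other called probe, ILMN_2615015, was not correlated. Within hSRY-OFF, ILMN_2615015 was highest on replicate 2 and ILMN_2859847 on replicate 1. The negative signs therefore belong to 1 probe and are not shown for the gene.

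The other steps of glucose synthesis were then examined with a list of 25 enzymes, shuttles and carriers, of which 21 were on the array and 17 were tested. Of these, 4 genes were higher, 6 were lower and 7 were not called. By probe, 54.5% of 22 were called, against 33.1% of all, and the median difference was -0.07, beside 0.02 over all. Fbp1, the liver fructose bisphosphatase, was lower, with a difference of -0.90 ± 0.20 (SE, adjusted p = 0.0129, limma), a call that was lost without hSRY-OFF replicate 1 (adjusted p = 0.0525). Fbp2, the muscle isoform, had levels of 4.96, 5.77 and 5.49 in hSRY-OFF and 9.15, 8.41 and 9.21 in hSRY-ON liver, and was higher (adjusted p = 0.000266, limma). It was detected on 1 of 3 hSRY-OFF arrays and on all hSRY-ON arrays, so that its fitted difference of 3.52 rests on hSRY-OFF values mostly not above background. Among the lower genes, the 3 with the smallest p carry or convert glycerol and pyruvate. The glycerol channel Aqp9 had a difference of -1.13 (adjusted p = 0.00106), glycerol 3-phosphate dehydrogenase Gpd1 of -1.78 (adjusted p = 0.00222) and the mitochondrial pyruvate carrier subunit Mpc2 of -1.18 (adjusted p = 0.00249). Triose phosphate isomerase Tpi1, which serves glycolysis as well as synthesis, was higher by all 3 probes, by 0.49 to 1.31, and the call of the probe with the smallest difference was lost with median scaling (adjusted p = 0.0579), no background correction (adjusted p = 0.0594) or without hSRY-OFF replicate 1 or 2 or hSRY-ON replicate 1 (adjusted p from 0.0743 to 0.0948). Mitochondrial malate dehydrogenase Mdh2 was higher by 0.55 (adjusted p = 0.0248), a call lost with median scaling (adjusted p = 0.0693) and without hSRY-OFF replicate 1, 2 or 3 or hSRY-ON replicate 1 (adjusted p from 0.0628 to 0.0887). The mitochondrial carboxykinase Pck2 was detected on 0 of 6 arrays.

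In the list of 27 glycogen enzymes and regulators, 24 were on the array and 16 were tested, with 5 genes higher, 3 lower and 8 not called. By probe, 42.9% of 21 were called, against 33.1% of all, and the median difference was 0.04. The largest change among them was in Ppp1r3c, a glycogen-targeting subunit of protein phosphatase 1, which fell by 2.27 on the log2 scale ± 0.35 (SE, adjusted p = 0.00356, limma) to 20.8% of the hSRY-OFF level. The brain phosphorylase Pygb was lower, with a difference of -1.07 (adjusted p = 0.00463), as was Pygl. The muscle phosphorylase Pygm, the branching enzyme Gbe1 and the muscle synthase Gys1 were not tested, with Pygm and Gbe1 detected on 0 of 6 arrays. Pgm2 and the synthase kinase Gsk3b were higher, by 0.68 (adjusted p = 0.00607) and 0.70 (adjusted p = 0.0122), and the call of Gsk3b was lost without hSRY-OFF replicate 1 (adjusted p = 0.0576) or replicate 2 (adjusted p = 0.0539). Both tested probes of the catalytic subunit Ppp1cb were higher, by 0.54 and 0.47, and both calls were lost with median scaling (adjusted p = 0.0518 and 0.109). Ugp2, the source of UDP-glucose, was higher by 0.61 at the edge of the threshold (adjusted p = 0.04998) and lost its call with median scaling (adjusted p = 0.121). Phka2, a subunit of phosphorylase kinase, was called lower by 1 of 3 probes (-0.50, adjusted p = 0.0398), and lost that call with no background correction (adjusted p = 0.0567). The liver glycogen-targeting subunit Ppp1r3b had a difference of -0.12 (adjusted p = 0.877).

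The uptake and trapping of hexoses had 22 tested genes of 27, with 6 higher, 9 lower and 7 not called. By probe, 65.6% of 32 were called, against 33.1% of all, with a median difference of -0.10. Gckr, a hepatic regulator of glucose phosphorylation, fell by 2.38 on the log2 scale ± 0.25 (SE, adjusted p = 0.000758, limma) to 19.2% of the hSRY-OFF level. Galactose mutarotase Galm was lower, with a difference of -1.40 (adjusted p = 0.000565), and Slc2a9, which carries urate as well as hexoses, was lower by all 3 probes. The genes that were higher included glucose transporter 1, Slc2a1, by 2.61 ± 0.27 (SE, adjusted p = 0.000722, limma), and the phosphofructokinases Pfkp, by 3.92 ± 0.32 (SE, adjusted p = 0.00029, limma), and Pfkl, by 1.26 ± 0.13 (SE, adjusted p = 0.00077, limma). A second probe of Pfkp was undetected in hSRY-OFF liver and at least 9.32-fold higher in hSRY-ON liver, and a second probe of Pfkl had a difference of 0.13 (adjusted p = 0.652).

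Finally, of 43 hormonal and transcriptional regulators of glucose output, 41 were on the array and 28 were tested, with 9 genes higher, 8 lower and 11 not called. By probe, 62.1% of 29 were called, against 33.1% of all, and the median difference was 0.21. Besides Mlxipl and Gcgr, the lipogenic factor Srebf1 was lower, from levels of 8.35, 8.29 and 7.80 in hSRY-OFF liver to no detection on any hSRY-ON array, that is at least 5.42-fold lower (adjusted p = 0.000219, limma). Cebpa, an activator of Pck1 and G6pc in the newborn liver, had a difference of -1.66 ± 0.27 (SE, adjusted p = 0.00392, limma), whereas its relative Cebpb was higher by 1.39 ± 0.20 (SE, adjusted p = 0.00266, limma). Adra1b, a receptor for catecholamines, was at least 1.40-fold lower (adjusted p = 0.00198, limma). Pdk4, the kinase that shuts pyruvate dehydrogenase, was higher by 2.36 ± 0.41 (SE, adjusted p = 0.00549, limma), from 9.03, 9.55 and 8.77 in hSRY-OFF to 11.69, 12.20 and 10.54 in hSRY-ON liver. The coactivator Ppargc1a was higher by 1.71 ± 0.53 (SE, adjusted p = 0.0449, limma), with adjusted p from 0.0510 to 0.145 in 9 alternative settings. Hnf4a, the hepatocyte nuclear factor that sustains most of these genes, had a difference of -0.09 (adjusted p = 0.768).

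**Figure D4:**
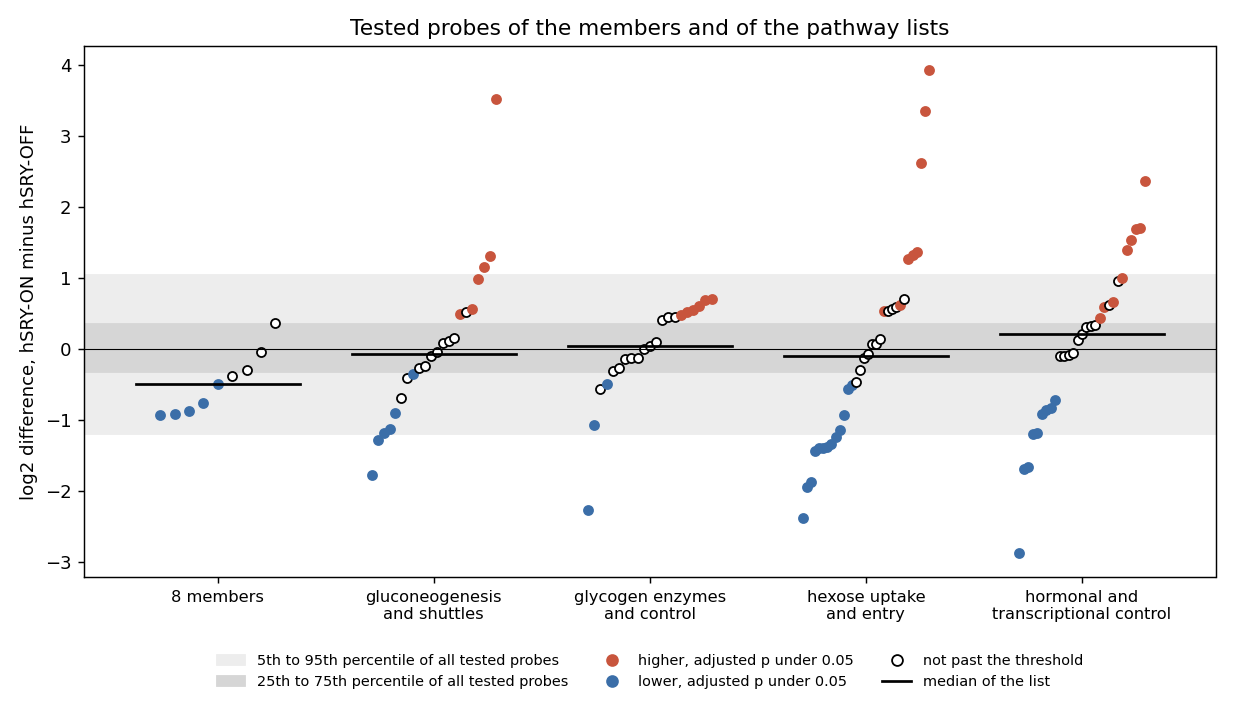
Difference of each tested probe, hSRY-ON minus hSRY-OFF on the log2 scale, for the 8 genes (left) and for the 4 pathway lists, with called probes filled in red (higher) or blue (lower), the median of each list as a bar, and grey bands for the percentiles of all tested probes. The 9 probes of the 8 genes have a median of -0.50 and none called higher, whereas the 4 lists have medians from -0.10 to 0.21 and calls in both directions.

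The cell types of the sample were examined with marker lists, beside 15.8% higher and 17.3% lower over all tested probes. Hepatocyte markers were detected for all 12 tested genes, and of 18 probes 0 were higher and 4 lower, with a median difference of -0.14. Their summed linear level ranged from 393919 to 405867 in hSRY-OFF and from 363187 to 392105 in hSRY-ON liver. This sum is dominated by very bright probes such as those of Ahsg, Serpina1b, Hpx and Apoa1, which lay near the top of the array's range and could move little. The 4 lower probes were those of Alb (46.2% of the hSRY-OFF level), Serpina1a (46.2% and 53.2%) and Ttr (72.6%). The called Pklr, Pcx and Pygl probes were at 52.5% to 70.7%. The Alb probe averaged only 7.94 in hSRY-OFF liver, beside 15.41 for Ahsg ILMN_2764036. How well it reports albumin RNA was not tested. The urea cycle genes Cps1 and Ass1 had differences above zero, of 0.40 to 0.49, and were not called. The part of hepatocyte content in the differences of the 8 genes was not tested. Of 7 markers of kidney, another glucose-producing organ, 6 were detected on 0 arrays, and Miox was detected on all 6 and was lower, with a difference of -2.16 (adjusted p = 0.000914). Stellate and fibroblast markers summed to 7512 to 8299 in hSRY-OFF and 18688 to 20457 in hSRY-ON liver, with 5 of 11 probes higher and 1 lower. Of the 5, 4 were probes of Acta2 (2.45 to 3.12 higher) and 1 of Des (0.77 higher), whereas Lrat was the lower probe (-1.66) and Col1a1, Col3a1, Dcn and Rgs5 were not called. Kupffer cell and macrophage markers had 1 of 11 probes higher and 4 lower, and endothelial markers had 3 of 8 higher and 0 lower. Of pancreatic markers, 1 of 2 tested probes was higher, that of Cela1. Amy2 was at 8.19 on hSRY-ON replicate 2, beside 5.06 and 4.84 on replicates 1 and 3, and Cpa1 was detected on that array alone, at 6.10. Cela1 was lowest there among the hSRY-ON arrays (9.43), and Pnlip, Ins1 and Ins2 were detected on 0 arrays. Whether that sample held pancreatic tissue was not tested. The 1 tested biliary probe was not called, and none of the intestinal or skeletal muscle markers was bright enough to be tested. The part of these cell types in the differences above was not tested.

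The genes most alike to each of the 6 tested genes over the 6 arrays were taken among 9197 probes detected on all arrays, by Pearson correlation of log2 levels, as a description without a test. For Pcx they were F11, Pemt and Tfr2 (r from 0.996 to 0.997), and for Pygl they were Sbk1, Anapc2 and Rassf7 (r from 0.996 to 0.999). For Pklr they were Atg16l1, Mbtps1 and Dsg2 (r from 0.989 to 0.996). For G6pc they were Rpap3, Syap1 and Ddx3y (r from 0.972 to 0.990), for Slc2a2 they were Hnrnpa2b1, Gm2a and Azgp1 (r from 0.975 to 0.979), and for Gys2 they were Abca8b, Sgk3 and Prss8 (r from 0.985 to 0.994). Each of the 6 tested genes was read here by its brightest tested probe alone. As group means were left in, a gene alike to a called gene largely shares its group difference by selection.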

How the data were processed

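Liver RNA of 6 male P6 pups (3 hSRY-OFF, 3 hSRY-ON, biological replicates according to the methods) had been hybridised to Illumina MouseRef-8 v2.0 BeadChips, and the labels gave each array's group and replicate number. For each of 25697 probes the deposited table gives the linear mean intensity of its beads, without background subtraction or normalisation by the authors, and a detection p-value, the rank of the probe among negative control beads. The methods name the TCC package and the submitters' processing notes name limma, with no model for either. Software of the scanner, outlier filters, slides and scan dates are not given in the sources used here.

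Intensities were background-corrected from the detection p-values (nec, offset 16), quantile-normalised and log2-transformed, and probes with detection p under 0.01 on at least 3 arrays were kept, regardless of group. This compresses differences of dim probes. Groups were compared with lmFit and eBayes of limma 3.58.1 in R 4.3.3 (two-sided, Benjamini-Hochberg over all tested probes, threshold 0.05). The fit was tested on simulated data. A probe undetected in a whole group was set against the lowest level of a detected probe on each array. This is a bound only where every array of the other group detected the probe. The precision of each value is limited by 3 arrays per group.

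The 8 genes, the pathway and marker lists and the tests were chosen with earlier results of these data known. Genes named are all probes of the 8 genes, a set of isoforms, partners and regulators whatever their values, up to 3 genes with the smallest p per direction in each pathway list, and the 3 most correlated symbols per gene. Older symbols were updated through RefSeq (14307 of 18138 current, 2927 through 1 older name, 904 unmatched). Some genes of the lists are not reported here by name. Promoter sequences are from RefSeq (GRCm38.p6), with 11 windows for 7 of the 8 genes. The markers of biliary, endothelial, intestinal, pancreatic and muscle cells were also examined. Alternatives covered background correction, scaling, filters, variance model, array weights, the replicate block, the threshold, the mean of probes, and each array left out in turn.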

Additional observations from a re-analysis of the deposited data

How the results depend on the processing

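The 9 tested probes of the 8 genes gave 153 values under alternative settings, of which 142 had the same direction and call, 6 lost a call, 2 gained one and 3 turned in sign. The 5 calls remained 5 in number under offset 50, median scaling, cyclic loess, the other filters on dim probes and the intensity trend with robust prior, and were 6 with no background correction or with array weights. At an adjusted p under 0.01 they were 2, with 693 of all probes higher and 972 lower. With 1 array left out in turn, 3 to 5 probes of the 8 genes were lower and 0 were higher, and over all probes 856 to 1822 were higher and 965 to 2125 lower. The lowest counts came without hSRY-OFF replicate 1, and hSRY-OFF replicate 2 (950 and 1009) and hSRY-ON replicate 1 (1075 higher) also moved a count by over 1.5 times.

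The sign turned for Gys2 with array weights (0.0057) and without hSRY-OFF replicate 2 (0.02) or hSRY-ON replicate 3 (0.21), for Hnf4a without hSRY-ON replicate 3 (0.13), for Pfkl ILMN_2871325 with array weights (-0.044), and for Ppp1r3b with array weights (0.30) and without hSRY-ON replicate 3 (0.56). With 1 array left out, Gys2 ranged from -0.35 to 0.21, Hnf4a from -0.28 to 0.13 and Ppp1r3b from -0.57 to 0.56. None of these was past the threshold. The ratio of Pklr to Pcx turned without hSRY-OFF replicate 1 (-0.10) and replicate 3 (-0.01), with a range of -0.10 to 0.20 when 1 array was left out. That of Gys2 to Pygl ranged from 0.06 to 0.72, and that of Slc2a2 to G6pc from -0.72 to -0.58. The cause was not tested. Of 633 values for 41 other named probes, 571 kept direction and call.

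The replicate numbers are shared between groups in the labels. Same-numbered arrays deviated together only weakly (r = 0.02, 0.10 and 0.05). The labels do not say whether such arrays share a slide, and these correlations cannot settle it. A shared litter is unlikely, because maternal Cre recombines the transgene whether or not the pup inherits Ddx4-Cre. The main fit took the arrays as unpaired. With the replicate block, 5 probes of the 8 genes were lower and 0 higher, with 1565 higher and 1645 lower over all probes. Among the other named probes, the block ended the calls of Phka2 ILMN_2725082 (adjusted p = 0.0562), Ppargc1a (adjusted p = 0.0576) and Ppp1cb ILMN_2647628 (adjusted p = 0.0627). The paired ratios were unchanged in size, with exact p of 0.25 for Slc2a2 to G6pc (-0.66), the smallest that 3 pairs allow, 0.5 for Gys2 to Pygl (0.45) and 1 for Pklr to Pcx (0.04). The planned ratio of G6pc to Slc37a4 was not run, since Slc37a4 had no tested probe. Scalings moved the median of all tested probes to between -0.04 and 0.02. What dim signal limits is the reading of Pck1 and Slc37a4, which rests on values near the detection floor.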
